A study of Homo sapiens with 45 samples.

Results

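Transcripts of 9 nuclear hormone receptor genes were followed through 3 breast cancer cell lines, with estradiol and with knockdown of the estrogen receptor or of a pair of nuclear proteins that act with it. The members were taken by name: ESR1 (estrogen receptor alpha), PGR (progesterone receptor), NR3C1 (glucocorticoid receptor), VDR (vitamin D receptor), RARA and RARG (retinoic acid receptors alpha and gamma), RXRA (retinoid X receptor alpha), and NR2F1 and NR2F2 (the COUP transcription factors). All 9 were found among the 57353 gene symbols of the count table. MM134 is the line MDA-MB-134-VI and MM330 the line MDA-MB-330, both of invasive lobular carcinoma, and HCC1428 is a line of invasive ductal carcinoma, so each histological type rests on a single line or a pair of lines.

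Each line had 5 groups of 3 libraries, 45 in all. Cells were kept without hormone for 3 days in medium with charcoal-stripped serum, transfected with a small interfering RNA (siRNA) and, a day later, given estradiol (E2) at 100 pM or vehicle for 24 h. E2 was combined with an siRNA against ESR1 in siER_E2, against FOXA1 (a factor that opens chromatin at estrogen receptor sites) in siFOXA1_E2, and against MDC1 (a scaffold protein of the DNA damage response) in siMDC1_E2. The siNT_E2 group received E2 with a non-targeting siRNA, and the siNT group received the non-targeting siRNA with 0.01% ethanol as vehicle, although its treatment label reads Untreated. Every knockdown was made in the presence of E2, and all 3 knockdown comparisons of a line share its siNT_E2 libraries, which are also 1 arm of the E2 comparison. Whether replicate libraries are separate cultures is not in the labels, so p-values measure only the spread between these libraries.

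Nuclear receptors are transcription factors that small lipophilic ligands switch on. Steroid receptors such as the estrogen, progesterone and glucocorticoid receptors bind DNA mainly as homodimers, whereas the retinoic acid and vitamin D receptors pair with a retinoid X receptor. In luminal breast cells the estrogen receptor drives growth and the progesterone receptor is a classical estrogen-induced gene, the retinoic acid receptors are linked to differentiation, and the COUP factors bind DNA without a known natural ligand and often act as repressors.

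The promoter windows of the members were searched for elements of the receptors and of forkhead factors, and the windows that held a match are printed. RefSeq windows on GRCh38.p14, each running from 250 bases before a transcription start to 50 bases after it, were found for 8 of the 9 members, 26 windows in all. VDR had none. They were searched on both strands for the estrogen response element half-site AGGTCA, the full palindrome (GGTCA, any 3 bases, TGACC), the forkhead motif TGTTTAC that FOXA-type factors can bind, and AGGTCA repeated after a spacer of 5 bases, the element of retinoic acid receptor dimers. The half-site can lie within the palindrome or the repeat. It was found in 13.831% of all 35116 windows of the RefSeq set, the palindrome in 0.057%, the forkhead motif in 3.423% and the spaced repeat in 0.006%. The RARA window printed, 1 of 3, lies at chr17:40308930-40309229 on the plus strand, with the half-site in capitals 230 bases before the start. The NR3C1 window printed, 1 of 7, lies at chr5:143403234-143403533 on the minus strand, with the forkhead motif in capitals 59 bases before the start.
RARA: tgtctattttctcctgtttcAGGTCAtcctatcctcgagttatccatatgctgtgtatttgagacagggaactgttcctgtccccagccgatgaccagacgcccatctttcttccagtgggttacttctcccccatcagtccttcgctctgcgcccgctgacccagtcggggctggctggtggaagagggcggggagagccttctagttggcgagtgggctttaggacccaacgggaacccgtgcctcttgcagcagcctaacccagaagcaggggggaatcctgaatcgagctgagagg
NR3C1: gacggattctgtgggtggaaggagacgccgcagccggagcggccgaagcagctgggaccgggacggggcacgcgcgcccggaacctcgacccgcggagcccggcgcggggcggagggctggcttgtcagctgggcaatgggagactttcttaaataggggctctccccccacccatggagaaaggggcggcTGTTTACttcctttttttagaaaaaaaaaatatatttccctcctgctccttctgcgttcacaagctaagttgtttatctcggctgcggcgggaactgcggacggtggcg
These are matches of letters and not measured binding, and the other windows of the members held none of the 4 motifs. Each motif that was found lay in 1 of the 26 windows. RARG and RXRA had no match, and the part of these matches in the changes below was not tested.

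Library totals ranged from 21.0 to 36.7 M counts. All 6 luminal epithelial markers averaged over 5 CPM (counts scaled to library size) in every line, with summed levels of 5750 to 18300 CPM. None of the basal, immune or endothelial markers did. The basal markers nevertheless moved with the FOXA1 knockdown. Those measured (2 of 4 in MM134, 1 of 4 in MM330 and 2 of 4 in HCC1428) were all called higher with siFOXA1, with median log2 fold changes of 2.86, 4.75 and 1.61. The low-count filter keeps a gene that 1 group alone lifts. A marker could thus be measured because siFOXA1_E2 was high, so that all those measured rose is no separate evidence. The summed level of all 4 basal markers was 2.66 to 2.78 CPM in MM134 siFOXA1_E2 and 0.618 to 1.03 CPM in siNT_E2. In MM330 it was 14 to 17.3 CPM in siFOXA1_E2 and 0.385 to 0.942 CPM in siNT_E2. In HCC1428 it was 11 to 13.6 CPM in siFOXA1_E2 and 2.54 to 2.85 CPM in siNT_E2. The rise in MM134 was not particular to siFOXA1_E2: the sum was 2.63 to 3.25 CPM in siMDC1_E2 and 1.65 to 1.93 CPM in siNT. The part of the basal markers in the siFOXA1 results was not tested. Among 6 fibroblast markers COL1A1 averaged over 5 CPM, and COL3A1 was at 0 in all lines. In 11 of the 45 libraries the share of counts at processed pseudogenes was 0.386% to 0.554%, against 0.162% to 0.208% in the other 34, and a call that ends without those 11 is said so beside its value. The siRNA against FOXA1 lowered FOXA1 by 1.97 on the log2 scale in MM134, by 1.86 in MM330 and by 1.64 in HCC1428, and the siRNA against MDC1 lowered MDC1 by 2.13, 2.30 and 1.94 in the same lines.

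ESR1, the direct target of siER, encodes the receptor that E2 activates (ENSG00000091831.23, chromosome 6, 151656691 to 152129619, plus strand, GRCh38). In MM134 it had 64.9, 61.7 and 57.6 CPM in siER_E2 libraries, 112, 108 and 114 CPM in siFOXA1_E2, 122, 122 and 123 CPM in siMDC1_E2, 553, 542 and 544 CPM in siNT_E2 and 341, 320 and 300 CPM in siNT. Every knockdown library lay below every vehicle library, and the siNT_E2 libraries stood highest with no overlap. The MM330 libraries had 26.2, 19.0 and 20.5 CPM in siER_E2, 195, 199 and 207 CPM in siFOXA1_E2, 149, 146 and 144 CPM in siMDC1_E2, 267, 283 and 292 CPM in siNT_E2 and 302, 292 and 295 CPM in siNT. Here the 3 knockdowns were ordered differently, with siMDC1_E2 below siFOXA1_E2. The HCC1428 libraries had 215, 202 and 220 CPM in siER_E2, 393, 396 and 395 CPM in siFOXA1_E2, 415, 388 and 398 CPM in siMDC1_E2, 414, 424 and 443 CPM in siNT_E2 and 560, 559 and 565 CPM in siNT. In HCC1428 the vehicle group was the highest, and siMDC1_E2 overlapped siNT_E2 by 1 library.

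**Figure D1:**
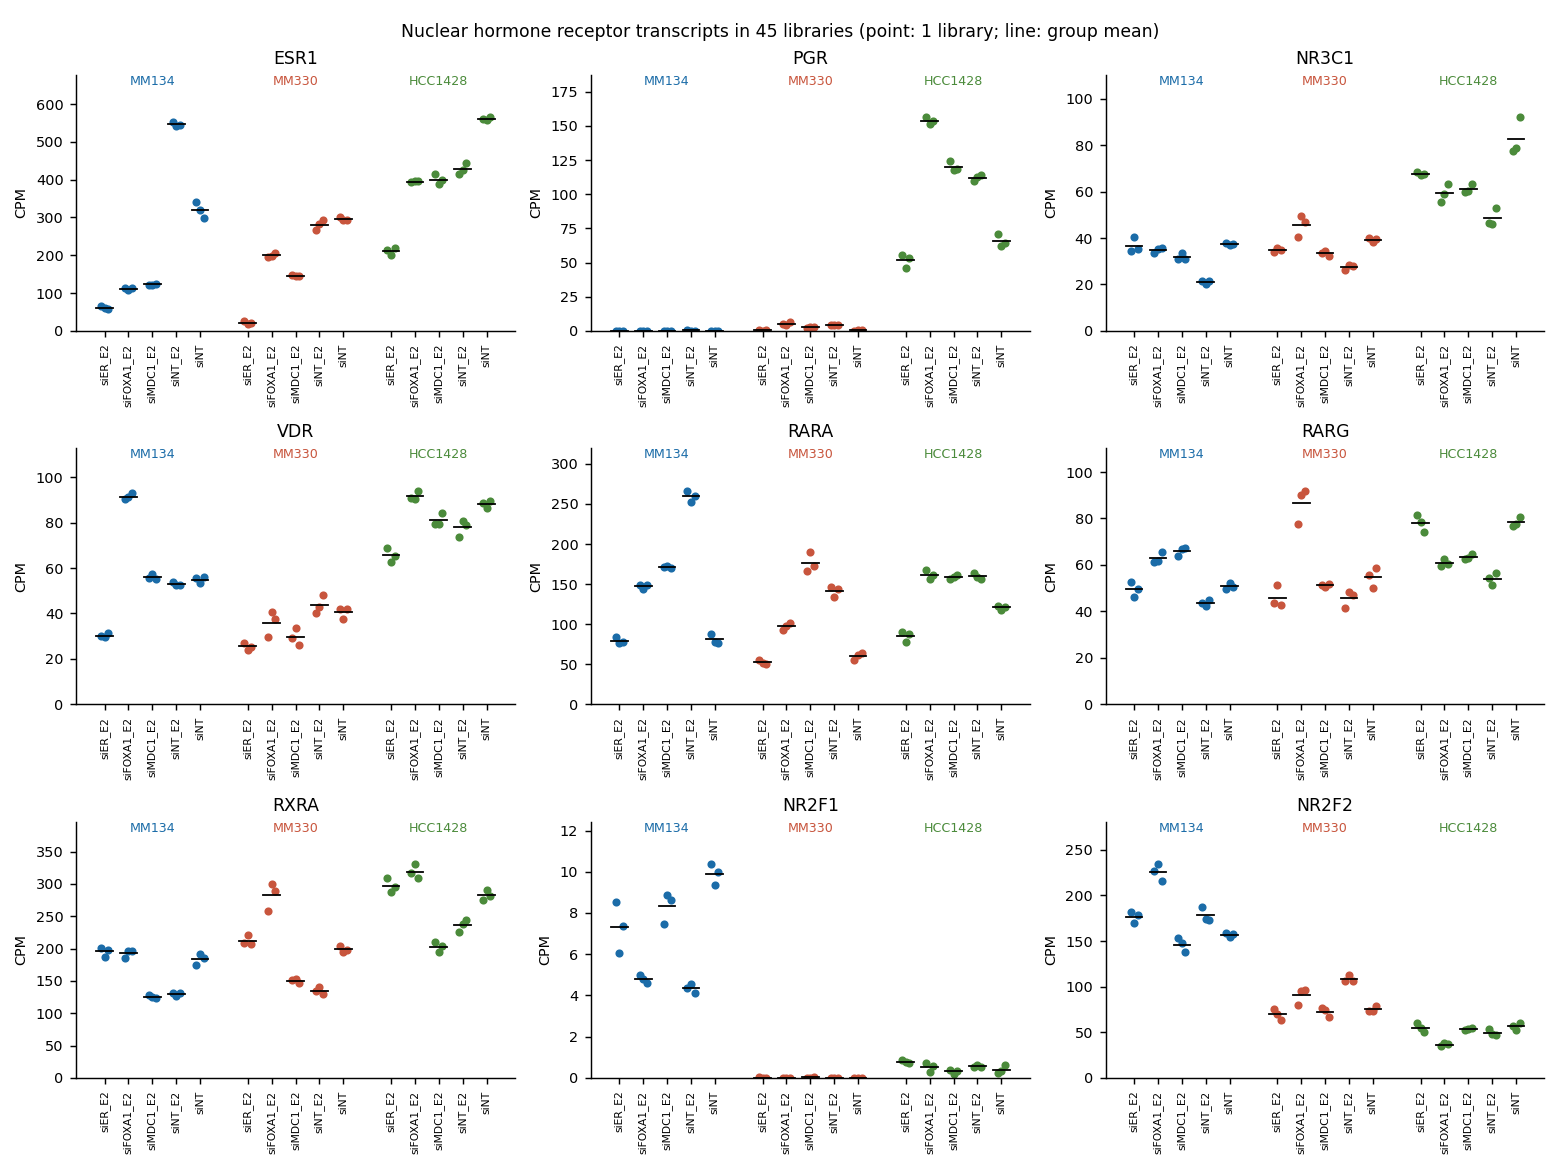
Levels of the 9 receptor transcripts in CPM (y axis, linear and from 0) in the 5 groups of each line (x axis), 1 point per library and a line at the mean of 3 libraries. ESR1 was highest in HCC1428 siNT (mean 561 CPM) and lowest in MM330 siER_E2 (mean 21.9 CPM), and NR2F1 was above 1 CPM only in MM134.

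E2 thus moved its own receptor's transcript in opposite directions in the lines. ESR1 rose with E2 in MM134 (log2 fold change 0.74 ± 0.038 SE, edgeR adjusted p = 3.6e-13), fell in HCC1428 (-0.42 ± 0.033, adjusted p = 2.1e-09) and did not pass in MM330 (-0.07 ± 0.066, adjusted p = 0.52). In bulk RNA, a smaller share of cells with a transcript and less of it per cell cannot be told apart. The knockdown of ESR1 was 12.8-fold in MM330 (log2 -3.68 ± 0.078, adjusted p = 7.3e-15) and 8.71-fold in MM134 (-3.12 ± 0.043, adjusted p = 1.5e-22), but 2.01-fold in HCC1428 (-1.0 ± 0.034, adjusted p = 2e-14). The ESR1 level left in siER_E2 therefore differed between the lines, with a mean of 21.9 CPM in MM330 and 212 CPM in HCC1428.

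ESR1 also fell with both other siRNAs in every line. With siFOXA1 it fell 4.88-fold in MM134 (log2 -2.29 ± 0.041, edgeR adjusted p = 5.3e-21), 1.37-fold in MM330 (-0.45 ± 0.067, adjusted p = 2.5e-05) and 1.11-fold in HCC1428 (-0.16 ± 0.033, adjusted p = 0.00058). With siMDC1 it fell 4.46-fold in MM134 (-2.16 ± 0.041, adjusted p = 2e-20), 1.94-fold in MM330 (-0.96 ± 0.067, adjusted p = 4.5e-08) and 1.09-fold in HCC1428 (-0.12 ± 0.033, adjusted p = 0.01). The HCC1428 call with siMDC1 was lost without siMDC1_E2 replicate 2 (-0.10, adjusted p = 0.061) and in a fit of the 6 compared libraries alone (-0.10, adjusted p = 0.051). Set directly against siMDC1_E2, siFOXA1_E2 had less ESR1 in MM134 (-0.13 ± 0.041, adjusted p = 0.011), a call lost without siFOXA1_E2 replicate 2 (-0.11, adjusted p = 0.067), and more in MM330 (0.50 ± 0.067, adjusted p = 8.9e-06). The HCC1428 difference was -0.04 ± 0.033 (adjusted p = 0.41) and was 0.00 with the RLE scaling. In the ER knockdown, MDC1 itself fell in all lines, by 0.63 on the log2 scale in MM134, 0.98 in MM330 and 1.17 in HCC1428, and FOXA1 rose by 0.31, 0.19 and 0.63. With siFOXA1, MDC1 fell by 0.35, 0.71 and 0.90 in the same lines. With E2, MDC1 was at 0.00 in MM134 (adjusted p = 0.96) and rose by 0.50 in MM330 and 1.39 in HCC1428, while FOXA1 fell by 0.18, 0.44 and 0.75. With siMDC1, FOXA1 rose in HCC1428 (0.23). The part of these MDC1 and FOXA1 changes in the receptor changes below was not tested.

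Across the members, most comparisons were called, in a setting where many genes were. With E2, the tested members called were 7 of 8 in MM134 (3 higher, 4 lower), 6 of 8 in MM330 (3 higher, 3 lower) and 8 of 9 in HCC1428 (2 higher, 6 lower). Of all genes tested for E2, the share called was 54.4% in MM134 (27.2% higher, 27.2% lower), 26.3% in MM330 (13.7% higher, 12.6% lower) and 54.8% in HCC1428 (29.1% higher, 25.7% lower). With siER, the tested members called were 7 of 8 in MM134 (4 higher, 3 lower), 7 of 8 in MM330 (2 higher, 5 lower) and 8 of 9 in HCC1428 (4 higher, 4 lower). Of all genes tested for siER, the share called was 57.2% in MM134 (29.3% higher, 27.9% lower), 32.5% in MM330 (15.1% higher, 17.4% lower) and 51.2% in HCC1428 (22.5% higher, 28.7% lower). With siFOXA1, the tested members called were 7 of 8 in MM134 (5 higher, 2 lower), 7 of 8 in MM330 (3 higher, 4 lower) and 7 of 9 in HCC1428 (5 higher, 2 lower). Of all genes tested for siFOXA1, the share called was 56.3% in MM134 (27.9% higher, 28.5% lower), 49% in MM330 (24.4% higher, 24.6% lower) and 53.6% in HCC1428 (24.1% higher, 29.5% lower). With siMDC1, the tested members called were 6 of 8 in MM134 (3 higher, 3 lower), 7 of 8 in MM330 (3 higher, 4 lower) and 4 of 9 in HCC1428 (2 higher, 2 lower). Of all genes tested for siMDC1, the share called was 50.3% in MM134 (25.4% higher, 25% lower), 20.8% in MM330 (10.4% higher, 10.4% lower) and 29.1% in HCC1428 (13.2% higher, 15.9% lower). Of 100 member tests in these 12 comparisons, 81 were called. The siER counts, here and below, include ESR1, the direct target of that siRNA, and so does this total. PGR in MM134 and NR2F1 in MM330 had too few counts to be tested. The direction shared by all 3 lines was higher for RARA and lower for NR3C1, RARG and RXRA with E2. It was lower for ESR1, VDR and RARA and higher for NR3C1 and RXRA with siER.

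**Figure D2:**
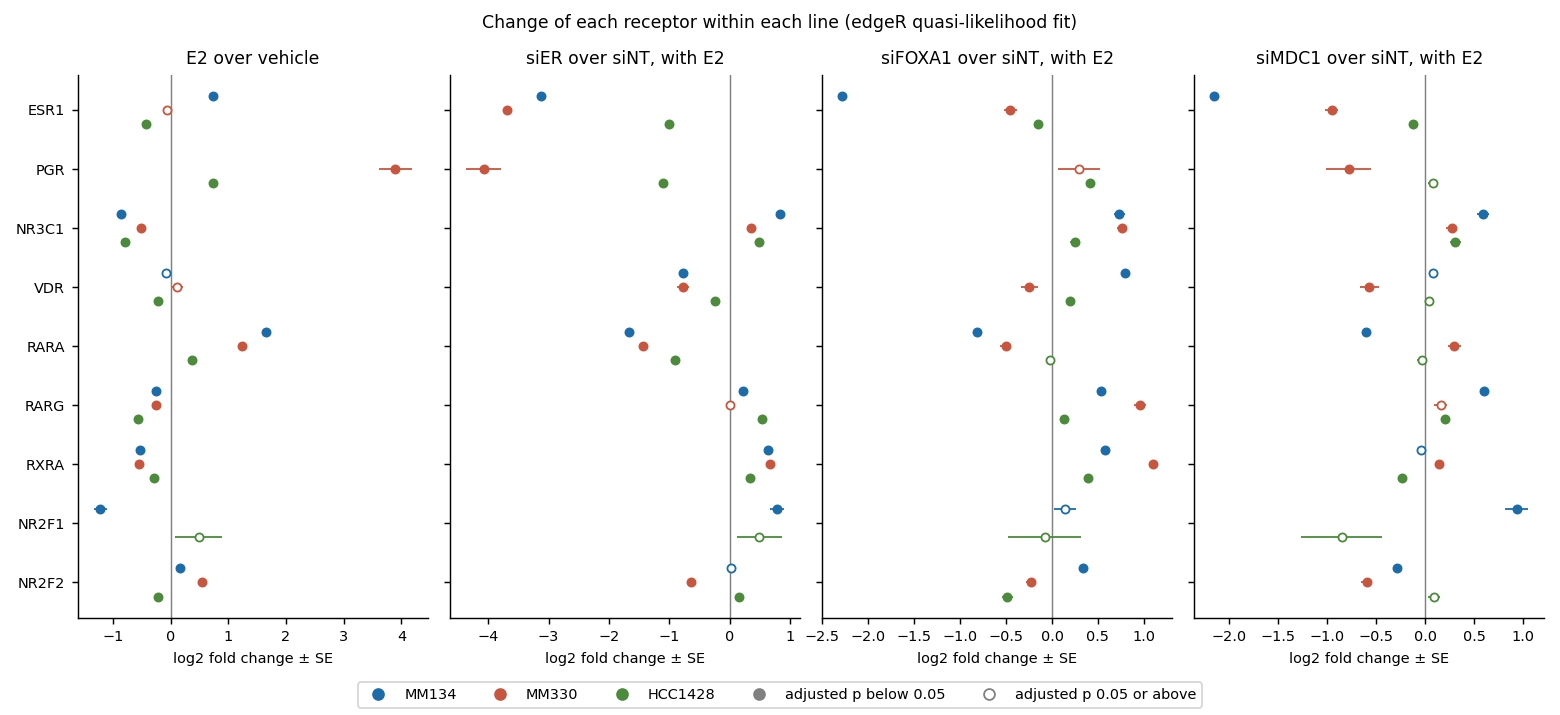
Change of each receptor (rows) within MM134, MM330 and HCC1428 (colours) as log2 fold change with its standard error (x axis), in 4 panels for E2 over vehicle and for each knockdown over siNT with E2. Filled points had an edgeR adjusted p below 0.05 and open points did not. RARA lies to the right for E2 and to the left for siER in every line, and NR3C1 lies on the opposite sides.

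The knockdown groups were also set against vehicle and against each other, where calls of members and of all genes were counted in either direction. For siER_E2 against siNT the members called were 4 of 8 in MM134 (all genes 32.3%), 5 of 8 in MM330 (all genes 20.2%) and 5 of 9 in HCC1428 (all genes 21.2%). The MM330 count was 3 without siER_E2 replicate 1, siER_E2 replicate 2 or siNT replicate 2, and 2 without siER_E2 replicate 3 or siNT replicate 3. It was also 3 without the libraries with more pseudogene counts. For siFOXA1_E2 against siNT the members called were 6 of 8 in MM134 (all genes 56.8%), 7 of 8 in MM330 (all genes 46.9%) and 7 of 9 in HCC1428 (all genes 48.5%). For siMDC1_E2 against siNT the members called were 7 of 8 in MM134 (all genes 49.1%), 6 of 8 in MM330 (all genes 34.9%) and 7 of 9 in HCC1428 (all genes 48.4%). For siER_E2 against siFOXA1_E2 the members called were 6 of 8 in MM134 (all genes 51.3%), 8 of 8 in MM330 (all genes 45.9%) and 7 of 9 in HCC1428 (all genes 42.9%). For siER_E2 against siMDC1_E2 the members called were 7 of 8 in MM134 (all genes 45.6%), 4 of 8 in MM330 (all genes 30.6%) and 8 of 9 in HCC1428 (all genes 41.1%). For siFOXA1_E2 against siMDC1_E2 the members called were 7 of 8 in MM134 (all genes 49.8%), 8 of 8 in MM330 (all genes 48.8%) and 4 of 9 in HCC1428 (all genes 45.4%). The shares of all genes were not split by direction here, so the following counts by direction have no such share beside them. In MM330 all 8 tested members were lower in siER_E2 than in siFOXA1_E2, among them ESR1, the target of siER. There, 7 of 8 were higher in siFOXA1_E2 than in siMDC1_E2. Of these, VDR (log2 0.32 ± 0.095, edgeR adjusted p = 0.0095) had overlapping groups and was not called without siFOXA1_E2 replicate 2 (0.23, adjusted p = 0.071), without siMDC1_E2 replicate 3 (0.25, adjusted p = 0.061) or without the libraries with more pseudogene counts (0.25, adjusted p = 0.077).

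PGR encodes the progesterone receptor, a steroid receptor long used as a clinical readout of estrogen receptor activity (ENSG00000082175.14, chromosome 11, 101029624 to 101130524, minus strand). Its starting level set the lines far apart. In MM330 it had 0.292, 0.205 and 0.249 CPM in siER_E2, 4.79, 4.0 and 6.49 CPM in siFOXA1_E2, 1.79, 2.64 and 3.04 CPM in siMDC1_E2, 4.21, 4.05 and 4.52 CPM in siNT_E2 and 0.186, 0.333 and 0.321 CPM in siNT. The siER_E2 and siNT libraries overlapped near the bottom, and the siNT_E2 libraries lay far above both. E2 raised PGR 14.9-fold in MM330 (log2 3.90 ± 0.29, edgeR adjusted p = 2.5e-08), and siER lowered it 16.8-fold (-4.07 ± 0.294, adjusted p = 1.2e-08).

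With FOXA1 knockdown the PGR change in MM330 did not pass the test (log2 0.29 ± 0.229, edgeR adjusted p = 0.31), although ESR1 fell there. With siMDC1 PGR fell 1.72-fold in MM330 (-0.78 ± 0.234, adjusted p = 0.024). That call was lost without siMDC1_E2 replicate 1 (-0.59, adjusted p = 0.13) or replicate 2 (-0.82, adjusted p = 0.059), and without siNT_E2 replicate 1 (-0.78, adjusted p = 0.06) or replicate 3 (-0.74, adjusted p = 0.083).

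In HCC1428 PGR had 55.4, 46.2 and 53.2 CPM in siER_E2, 156, 152 and 153 CPM in siFOXA1_E2, 124, 118 and 119 CPM in siMDC1_E2, 109, 113 and 114 CPM in siNT_E2 and 70.9, 62.0 and 64.0 CPM in siNT. Every siER_E2 library lay below every vehicle library, and the siFOXA1_E2 libraries stood above all others. PGR rose with E2 in HCC1428 1.67-fold (log2 0.74 ± 0.053, edgeR adjusted p = 5.8e-10), fell 2.16-fold with siER (-1.11 ± 0.053, adjusted p = 2.6e-12) and rose 1.33-fold with siFOXA1 (0.42 ± 0.051, adjusted p = 1.3e-06). The value with siMDC1 was 0.08 ± 0.051 (adjusted p = 0.3). Compared with vehicle, the siER_E2 group was lower in HCC1428 (-0.37 ± 0.055, adjusted p = 5e-05), whereas the MM330 difference was -0.18 ± 0.355 (adjusted p = 0.83).

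MM134 had almost no PGR transcript. The 3 siNT_E2 libraries held 24 counts in all and the 3 siNT libraries held 0, which sets the siNT_E2 level at least 8.14-fold higher when a count of 0 is taken as up to 3 counts over the group. Summed counts were 6 in siER_E2, 8 in siFOXA1_E2 and 2 in siMDC1_E2. The antisense transcript PGR-AS1, whose exons cover 5.27% of the PGR exon bases, reached at most 1.09 CPM in any library; the strand setting of the counting was not given in the sources used here, so reads of a member and its antisense partner may not be told apart.

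**Figure D3:**
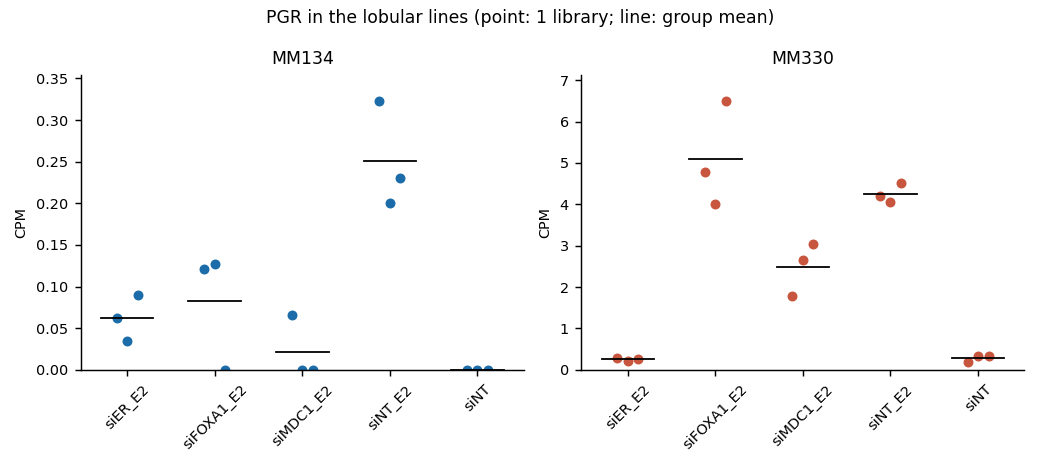
PGR in the lobular lines MM134 and MM330 in CPM (y axes, linear, from 0 and on different scales) by group (x axis), 1 point per library and a line at the mean of 3. The siNT_E2 libraries of MM330 sit between 4.05 and 4.52 CPM, above every siER_E2 and siNT library, and all 3 siNT libraries of MM134 are at 0.

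NR3C1 encodes the glucocorticoid receptor, which binds cortisol (ENSG00000113580.14, chromosome 5, 143277931 to 143435512, minus strand). In MM134 it had 34.3, 40.3 and 35.1 CPM in siER_E2, 33.8, 35.3 and 35.8 CPM in siFOXA1_E2, 30.8, 33.7 and 31.1 CPM in siMDC1_E2, 21.4, 20.4 and 21.5 CPM in siNT_E2 and 38.0, 36.9 and 37.6 CPM in siNT. The siNT_E2 libraries were the lowest, below all others. The MM330 libraries had 34.0, 35.8 and 35 CPM in siER_E2, 40.4, 49.6 and 46.9 CPM in siFOXA1_E2, 33.7, 34.6 and 32.2 CPM in siMDC1_E2, 26.2, 28.3 and 28.0 CPM in siNT_E2 and 39.9, 38.3 and 39.8 CPM in siNT. The HCC1428 libraries had 68.6, 67.0 and 67.6 CPM in siER_E2, 55.5, 59.1 and 63.4 CPM in siFOXA1_E2, 59.9, 60.2 and 63.4 CPM in siMDC1_E2, 46.3, 46.3 and 53.0 CPM in siNT_E2 and 77.5, 78.8 and 92.1 CPM in siNT. In each line, the siNT_E2 group lay below every library of the other 4 groups.

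NR3C1 fell with E2 in all 3 lines, by 0.86 on the log2 scale in MM134 (± 0.058 SE, edgeR adjusted p = 3.3e-11), 0.51 in MM330 (± 0.054, adjusted p = 1.6e-06) and 0.80 in HCC1428 (± 0.055, adjusted p = 3.7e-10). It was also the single member that rose with every knockdown in every line. The increases were 0.82, 0.35 and 0.49 with siER in MM134, MM330 and HCC1428, 0.73, 0.77 and 0.25 with siFOXA1, and 0.59, 0.27 and 0.31 with siMDC1, with adjusted p of 0.0016 or less. These 3 knockdown comparisons share their siNT_E2 libraries with each other and with the E2 comparison, so they are not independent. Against vehicle, which shares no library with the knockdown groups, the siER_E2 value was -0.04 ± 0.055 in MM134 (adjusted p = 0.65), -0.16 ± 0.053 in MM330 (adjusted p = 0.042) and -0.31 ± 0.054 in HCC1428 (adjusted p = 0.00029). The MM330 call was lost on leaving out any 1 of its 6 libraries, with adjusted p of 0.14, 0.094 and 0.061 without siER_E2 replicates 1, 2 and 3 and of 0.12, 0.11 and 0.1 without siNT replicates 1, 2 and 3 (values -0.14 to -0.18), and without the libraries with more pseudogene counts (-0.18, adjusted p = 0.19).

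RXRA encodes the common dimer partner of the retinoic acid, vitamin D and other receptors (ENSG00000186350.10, chromosome 9, 134317098 to 134440585, plus strand). Its MM134 libraries had 201, 188 and 198 CPM in siER_E2, 186, 196 and 197 CPM in siFOXA1_E2, 128, 125 and 124 CPM in siMDC1_E2, 131, 126 and 132 CPM in siNT_E2 and 175, 191 and 185 CPM in siNT. Only siMDC1_E2 overlapped siNT_E2, and the other 3 groups lay together above them. In MM330 the group means were 213 ± 7.17 CPM in siER_E2, 282 ± 21.3 in siFOXA1_E2, 151 ± 3.58 in siMDC1_E2, 135 ± 5.22 in siNT_E2 and 199 ± 5.05 in siNT (SD, n = 3). In HCC1428 they were 297 ± 11.3, 319 ± 10.6, 203 ± 7.46, 236 ± 9.63 and 283 ± 7.16 CPM in the same order of groups.

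RXRA fell with E2 in MM134 (log2 -0.54 ± 0.035, edgeR adjusted p = 1.8e-11), MM330 (-0.55 ± 0.038, adjusted p = 7.6e-09) and HCC1428 (-0.29 ± 0.038, adjusted p = 2.4e-06). It rose with siER by 0.63, 0.66 and 0.34 in the same lines and with siFOXA1 by 0.58, 1.1 and 0.39, all with adjusted p of 4.1e-07 or less. The MDC1 knockdown did not follow that pattern: RXRA was -0.04 ± 0.036 in MM134 (adjusted p = 0.33) and fell by 0.24 in HCC1428 (± 0.038, adjusted p = 8.8e-05). The MM330 value was 0.14 ± 0.038 (adjusted p = 0.012), a call lost without siMDC1_E2 replicate 2 (0.13, adjusted p = 0.056), without siNT_E2 replicate 3 (0.11, adjusted p = 0.077) and without the libraries with more pseudogene counts (0.16, adjusted p = 0.066). Set directly against each other, siER_E2 had more RXRA than siMDC1_E2 in all 3 lines, by 0.67, 0.52 and 0.58.

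RARA encodes retinoic acid receptor alpha, whose promoter window with an AGGTCA half-site is printed above (ENSG00000131759.17, chromosome 17, 40309192 to 40357643, plus strand). It had 83.9, 76.6 and 78.1 CPM in MM134 siER_E2 libraries, 150, 144 and 150 CPM in siFOXA1_E2, 172, 173 and 170 CPM in siMDC1_E2, 266, 252 and 260 CPM in siNT_E2 and 87.8, 78.3 and 76.7 CPM in siNT. The siER_E2 and siNT libraries overlapped, and siFOXA1_E2 and siMDC1_E2 lay between them and siNT_E2. The MM330 libraries had 55.6, 51.6 and 49.7 CPM in siER_E2, 92.2, 98.3 and 102 CPM in siFOXA1_E2, 167, 190 and 172 CPM in siMDC1_E2, 146, 134 and 144 CPM in siNT_E2 and 55.7, 62.0 and 64.2 CPM in siNT. The HCC1428 libraries had 90.0, 78.0 and 87.6 CPM in siER_E2, 167, 156 and 162 CPM in siFOXA1_E2, 156, 159 and 161 CPM in siMDC1_E2, 164, 159 and 156 CPM in siNT_E2 and 123, 118 and 122 CPM in siNT. In HCC1428 the 3 E2 groups without the ESR1 siRNA overlapped, and siER_E2 lay below vehicle.

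RARA rose with E2 3.14-fold in MM134 (log2 1.65 ± 0.042, edgeR adjusted p = 1.7e-18), 2.35-fold in MM330 (1.23 ± 0.064, adjusted p = 2.8e-10) and 1.30-fold in HCC1428 (0.37 ± 0.043, adjusted p = 5.2e-07). It fell with siER by 1.68, 1.44 and 0.90 on the log2 scale (adjusted p of 3.1e-11 or less). With siFOXA1 it fell by 0.81 in MM134 and by 0.51 in MM330, while HCC1428 was at -0.03 ± 0.043 (adjusted p = 0.62), a value of 0.00 with RLE scaling. MDC1 knockdown gave opposite results in the lobular lines: RARA fell by 0.60 in MM134 (± 0.040, adjusted p = 3e-11) and rose by 0.30 in MM330 (± 0.062, adjusted p = 0.002), with -0.04 ± 0.043 in HCC1428 (adjusted p = 0.57). RARA-AS1, an antisense transcript whose exons cover 11.75% of the RARA exon bases, reached at most 3.3 CPM in any library, in MM134.

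RARG encodes retinoic acid receptor gamma (ENSG00000172819.16, chromosome 12, 53210567 to 53232980, minus strand) and moved against RARA with E2. It had 43.8, 42.2 and 44.7 CPM in MM134 siNT_E2 libraries against 49.7, 52.2 and 50.4 CPM in siNT, 41.4, 48.6 and 47.1 CPM in MM330 siNT_E2 against 55.8, 50.2 and 58.7 CPM in siNT, and 54.3, 51.2 and 56.6 CPM in HCC1428 siNT_E2 against 76.8, 77.8 and 80.8 CPM in siNT. No siNT_E2 library reached the siNT libraries of its line. RARG fell with E2 by 0.25 on the log2 scale in MM134 (± 0.043, edgeR adjusted p = 3.1e-05), 0.26 in MM330 (± 0.066, adjusted p = 0.0075) and 0.57 in HCC1428 (± 0.039, adjusted p = 2.9e-10).

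The highest RARG level of the 15 groups was in MM330 siFOXA1_E2, whose libraries had 77.6, 90.1 and 91.9 CPM. RARG rose with siFOXA1 by 0.96 in MM330 (± 0.065, edgeR adjusted p = 3.5e-09), by 0.53 in MM134 (± 0.042, adjusted p = 3.5e-10) and by 0.13 in HCC1428 (± 0.039, adjusted p = 0.0092). The HCC1428 call was lost with no filter on low counts (0.12, adjusted p = 0.055). With siER it rose in MM134 (0.22) and HCC1428 (0.54) and was at 0.01 ± 0.066 in MM330 (adjusted p = 0.94), where leaving out siER_E2 replicate 2 gave -0.06 and siNT_E2 replicate 1 gave -0.04. With siMDC1 it rose in MM134 (0.60) and HCC1428 (0.21), and the MM330 value was 0.16 ± 0.066 (adjusted p = 0.11).

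VDR encodes the vitamin D receptor (ENSG00000111424.10, chromosome 12, 47841537 to 47943048, minus strand). In MM134 it had 30.0, 29.4 and 31.4 CPM in siER_E2, 90.2, 91.1 and 92.8 CPM in siFOXA1_E2, 55.5, 57.5 and 55.3 CPM in siMDC1_E2, 54.0, 52.4 and 52.5 CPM in siNT_E2 and 55.5, 53.2 and 55.8 CPM in siNT. ESR1 and FOXA1 knockdown thus left VDR far apart on either side of siNT_E2. The MM330 libraries had 27.2, 24.1 and 25.1 CPM in siER_E2, 29.7, 40.6 and 37.6 CPM in siFOXA1_E2, 29.3, 33.6 and 26.3 CPM in siMDC1_E2, 40.1, 42.9 and 48.0 CPM in siNT_E2 and 41.9, 37.6 and 41.8 CPM in siNT. The HCC1428 libraries had 68.8, 62.6 and 65.5 CPM in siER_E2, 90.9, 90.3 and 94.0 CPM in siFOXA1_E2, 79.5, 79.5 and 84.2 CPM in siMDC1_E2, 73.6, 80.9 and 79.1 CPM in siNT_E2 and 88.8, 86.3 and 89.6 CPM in siNT. The siER_E2 libraries were below siNT_E2 in every line, with no overlap.

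VDR fell with siER by 0.78 on the log2 scale in MM134 (± 0.039, edgeR adjusted p = 1.7e-13), 0.77 in MM330 (± 0.094, adjusted p = 6.7e-06) and 0.24 in HCC1428 (± 0.041, adjusted p = 7e-05). E2 itself gave -0.08 ± 0.037 in MM134 (adjusted p = 0.071), 0.12 ± 0.092 in MM330 (adjusted p = 0.41) and a fall of 0.21 in HCC1428 (± 0.041, adjusted p = 0.0002). The MM134 value passed without siNT replicate 2 (-0.11, adjusted p = 0.029). In all 3 lines siER_E2 was also below vehicle, by 0.85, 0.66 and 0.45, so that VDR with E2 and the ESR1 siRNA was lower than without E2.

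With siFOXA1 VDR rose 1.73-fold in MM134 (log2 0.79 ± 0.035, edgeR adjusted p = 1.6e-14) and 1.15-fold in HCC1428 (0.20 ± 0.041, adjusted p = 0.00049). The MM330 change was -0.25 ± 0.093 (adjusted p = 0.038) with overlapping groups, and its call was lost without siFOXA1_E2 replicate 1 (-0.16, adjusted p = 0.15) or replicate 3 (-0.27, adjusted p = 0.058), without siNT_E2 replicate 3 (-0.18, adjusted p = 0.17), and in a fit of the compared libraries alone (-0.25, adjusted p = 0.063). With siMDC1 VDR fell by 0.57 in MM330 (± 0.094, adjusted p = 0.00029), with 0.08 ± 0.037 in MM134 (adjusted p = 0.073) and 0.03 ± 0.041 in HCC1428 (adjusted p = 0.58).

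NR2F1 and NR2F2 encode COUP-TFI and COUP-TFII, close relatives that differed in which lines carried them. NR2F1 (ENSG00000175745.12, chromosome 5, 93583224 to 93594615, plus strand) had 8.52, 6.04 and 7.37 CPM in MM134 siER_E2, 4.99, 4.78 and 4.59 CPM in siFOXA1_E2, 7.49, 8.89 and 8.65 CPM in siMDC1_E2, 4.35, 4.54 and 4.14 CPM in siNT_E2 and 10.4, 9.37 and 9.97 CPM in siNT. The vehicle libraries were the highest and the siNT_E2 libraries the lowest. In HCC1428 no library exceeded 0.865 CPM, and in MM330 NR2F1 had counts in only 2 of 15 libraries, 0.0365 and 0.0676 CPM. NR2F1 fell 2.32-fold with E2 in MM134 (log2 -1.22 ± 0.117, edgeR adjusted p = 9.5e-09) and rose with siER (0.78 ± 0.118, adjusted p = 6.6e-06) and siMDC1 (0.94 ± 0.118, adjusted p = 6.2e-07), with 0.14 ± 0.121 for siFOXA1 (adjusted p = 0.34).

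At these low counts NR2F1 was not called in HCC1428 with E2 or any knockdown: the log2 values were 0.49 ± 0.402 with E2, 0.49 ± 0.375 with siER, -0.08 ± 0.393 with siFOXA1 and -0.86 ± 0.415 with siMDC1, with edgeR adjusted p of 0.14 or more. Set against siMDC1_E2, siER_E2 had more NR2F1 in HCC1428 (1.34 ± 0.404, edgeR adjusted p = 0.012), a call lost without siMDC1_E2 replicate 2 (1.12, adjusted p = 0.062). The siFOXA1 value became 0.20 without siFOXA1_E2 replicate 2 and 0.02 without siNT_E2 replicate 3. NR2F1-AS1, antisense to NR2F1 over 3.66% of its exon bases, reached at most 2.05 CPM in any library.

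NR2F2 (ENSG00000185551.14, chromosome 15, 96325938 to 96340263, plus strand) was measured well in all 3 lines. Its MM134 libraries had 182, 169 and 178 CPM in siER_E2, 227, 234 and 216 CPM in siFOXA1_E2, 153, 148 and 138 CPM in siMDC1_E2, 187, 175 and 173 CPM in siNT_E2 and 159, 154 and 157 CPM in siNT. The MM330 libraries had 75.2, 70.4 and 64.0 CPM in siER_E2, 80.2, 95.1 and 96.4 CPM in siFOXA1_E2, 76.9, 74.2 and 66.5 CPM in siMDC1_E2, 107, 113 and 107 CPM in siNT_E2 and 73.7, 73.4 and 78.5 CPM in siNT. The HCC1428 libraries had 60.4, 54.6 and 50.7 CPM in siER_E2, 34.5, 37.8 and 37.5 CPM in siFOXA1_E2, 52.1, 54.0 and 55.1 CPM in siMDC1_E2, 53.5, 48.3 and 47.2 CPM in siNT_E2 and 56.7, 53.0 and 60.4 CPM in siNT. FOXA1 knockdown marked both ends of the range: siFOXA1_E2 was the highest group in MM134 and the lowest in HCC1428.

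NR2F2 rose with E2 in MM330 (log2 0.54 ± 0.058, edgeR adjusted p = 2.1e-06) and MM134 (0.15 ± 0.043, adjusted p = 0.0037) and fell in HCC1428 (-0.22 ± 0.061, adjusted p = 0.0048), where the groups overlapped. With the replicate number as a block, NR2F2 was not called with E2 in HCC1428 (-0.16, edgeR adjusted p = 0.057). With siFOXA1 it rose in MM134 (0.34 ± 0.042, adjusted p = 3.4e-07) and fell in MM330 (-0.23 ± 0.058, adjusted p = 0.0033) and HCC1428 (-0.49 ± 0.063, adjusted p = 2.8e-06). With siMDC1 it fell by 0.60 in MM330 and 0.29 in MM134, with 0.09 ± 0.061 in HCC1428 (adjusted p = 0.32); without the libraries with more pseudogene counts the last value was 0.17 (adjusted p = 0.023). With siER it fell by 0.64 in MM330 and was at 0.02 ± 0.042 in MM134 (adjusted p = 0.77), a value of -0.01 without siNT_E2 replicate 3. The HCC1428 value with siER was 0.16 ± 0.061 (adjusted p = 0.04) with overlapping groups. That call was lost without siER_E2 replicate 1 (0.11, adjusted p = 0.19) or replicate 2 (0.14, adjusted p = 0.11), and without siNT_E2 replicate 4 (0.13, adjusted p = 0.1). It was also lost with the replicate block (0.10, edgeR adjusted p = 0.27).

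The lines were compared without E2, in siNT, where each comparison is between single lines and cannot separate the histological type from the line. Members that failed the filter in either line were left out, while the shares of all genes include genes that failed it. In MM134 against HCC1428, 8 of 8 tested members were called, 2 higher and 6 lower (75.6% of all genes were called, 35.7% higher and 39.9% lower). In MM330 against HCC1428, 8 of 8 were called, 1 higher and 7 lower (73% of all genes were called, 35.2% higher and 37.7% lower), and in MM134 against MM330, 5 of 7 were called, 3 higher and 2 lower (72.4% of all genes were called, 35.5% higher and 36.9% lower). Both lobular lines had less ESR1 than HCC1428, by 0.87 in MM134 and 0.94 in MM330 on the log2 scale, less NR3C1, by 1.20 and 1.09, and less VDR, by 0.74 and 1.15. RARA was lower by 0.64 and 1.01, RARG by 0.69 and 0.54, and RXRA by 0.68 and 0.52.

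NR2F2 went the other way without E2, higher than in HCC1428 by 1.41 in MM134 (± 0.064, edgeR adjusted p = 7.8e-23) and by 0.39 in MM330 (± 0.065, adjusted p = 1.1e-06). NR2F1 was higher in MM134 than in HCC1428 by 4.59 (± 0.289, adjusted p = 1.9e-16), and at least 288-fold higher in MM134 than in MM330, whose siNT libraries held no count (a count of 0 taken as up to 3 over the group). PGR was lower by 7.85 in MM330 than in HCC1428 (± 0.167, adjusted p = 4.5e-33), and its HCC1428 level was at least 2080-fold higher than that of MM134, which held no count in siNT. ESR1 was close in the lobular lines (0.07 ± 0.052 for MM134 over MM330, adjusted p = 0.22; called at 0.11, adjusted p = 0.048, with RLE scaling). The RARG difference between them was -0.15 ± 0.061 (adjusted p = 0.026), a call lost without siNT replicate 1 (-0.13, adjusted p = 0.092) or 3 (-0.14, adjusted p = 0.065) of MM134, and without siNT replicate 1 (-0.14, adjusted p = 0.071) or 3 (-0.10, adjusted p = 0.17) of MM330. It was also lost in edgeR with RLE scaling (-0.11, adjusted p = 0.064), no filter on low counts (-0.11, adjusted p = 0.16) or the replicate block (-0.16, adjusted p = 0.053). With DESeq2 it was lost too (-0.11, adjusted p = 0.067).

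Per length, receptors could be ranked within a line. Dividing CPM in siNT by the kilobases of annotated exons, ESR1 was the first of 46 receptor genes in HCC1428 (40.5 CPM per kb), ahead of NR2F6 (37.7). In MM330 it was the fourth (21.4 CPM per kb), after the thyroid hormone receptor gene THRA (35.5), NR2F6 (24.6) and NR1D1 (24.0). In MM134 it was also the fourth (23.1 ± 1.5 CPM per kb, SD), after PPARD (69.3), NR2F6 (28.6) and NR2F2 (24.3 ± 0.37). The order of ESR1 and NR2F2 there lay within the spread of the libraries. Lengths were merged over all annotated exons (13854 bases for ESR1), so the ranks depend on the annotation.

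The order of the 15 groups showed how far each member ranged. ESR1 spanned 25.6-fold between group means, and 4 of its 14 neighbouring pairs of groups overlapped in their libraries. Its lowest group was MM330 siER_E2, where the siRNA targets ESR1 itself, while no other member was targeted. NR2F2 spanned 6.16-fold, between MM134 siFOXA1_E2 (225 CPM) and HCC1428 siFOXA1_E2 (36.6 CPM), and RARA 4.96-fold, between MM134 siNT_E2 (260 CPM) and MM330 siER_E2 (52.3 CPM), with 6 overlapping pairs each. NR3C1 spanned 3.92-fold (7 pairs overlapping), VDR 3.6-fold (9 pairs) and RXRA 2.53-fold (10 pairs). RARG had the narrowest span, 1.99-fold between MM330 siFOXA1_E2 (86.6 CPM) and MM134 siNT_E2 (43.6 CPM), and 12 of its 14 neighbouring pairs overlapped. For PGR 6 and for NR2F1 8 of the 14 pairs overlapped, and their lowest groups were at 0.

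Whether the lines changed by different amounts was tested on the difference of the changes, in a fit of all 45 libraries. Members that failed the filter in either line were left out. The shares of all genes run over 21447 genes, which include genes that failed it, so the counts and shares have unlike bases. For MM134 minus HCC1428, 6 of 8 tested members differed with E2 (26.5% of all genes), 6 of 8 with siER (24.5%), 6 of 8 with siFOXA1 (30.5%) and 7 of 8 with siMDC1 (18.6%). For MM330 minus HCC1428 the counts were 8 of 8 with E2 (28.3% of all genes), 7 of 8 with siER (25.3%), 6 of 8 with siFOXA1 (22.2%) and 6 of 8 with siMDC1 (13.8%). For MM134 minus MM330 they were 4 of 7 with E2 (26.2% of all genes), 4 of 7 with siER (25.4%), 6 of 7 with siFOXA1 (29.1%) and 7 of 7 with siMDC1 (20.8%). The siER tests of the other members compare lines with unequal ESR1 knockdown. ESR1, the target of siER, differed in all 12 of these tests. Its change with siFOXA1 differed by -2.17 for MM134 minus HCC1428 (± 0.074, edgeR adjusted p = 9e-25) and by -1.85 for MM134 minus MM330 (± 0.075, adjusted p = 3.3e-22). RARA also differed in all 12, and its change with E2 was higher than in HCC1428 by 1.30 in MM134 (± 0.075, adjusted p = 7.8e-18) and by 0.86 in MM330 (± 0.076, adjusted p = 4.3e-12).

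**Figure D4:**
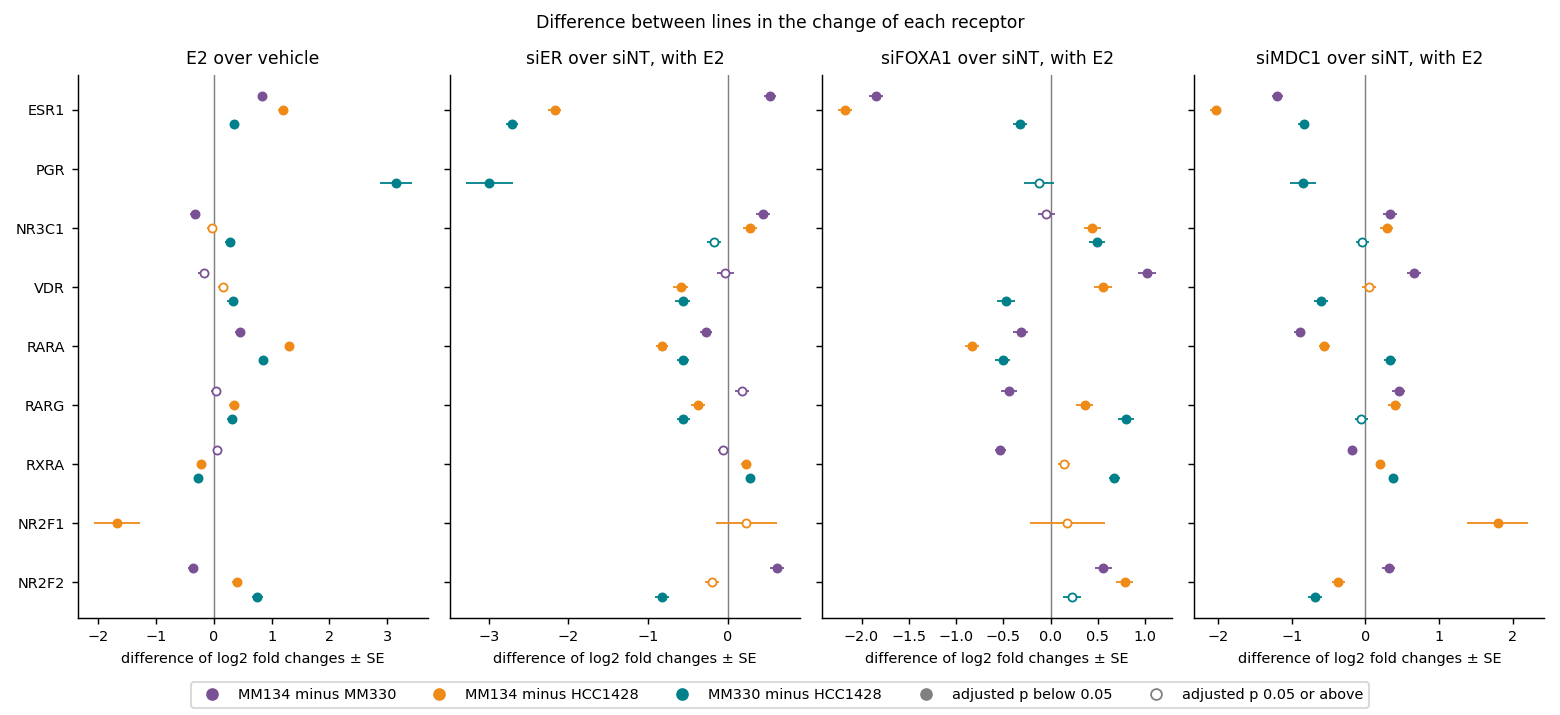
Difference between lines in the log2 fold change of each receptor (x axis, with standard error) for E2 and for each knockdown (4 panels), as MM134 minus MM330, MM134 minus HCC1428 and MM330 minus HCC1428 (colours). Filled points had an edgeR adjusted p below 0.05. For ESR1 all 12 points are filled, and the differences with siFOXA1 and siMDC1 are negative for every pair of lines.

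Other receptors of the superfamily were counted from a list of 37 genes, of which 27 were measured in MM134, 24 in MM330 and 27 in HCC1428. With E2 there were 5 higher and 12 lower in MM134 (63% called, all genes 54.4%, list median -0.23), 3 higher and 4 lower in MM330 (29.2% called, all genes 26.3%, list median -0.02) and 4 higher and 12 lower in HCC1428 (59.3% called, all genes 54.8%, list median -0.23). With siER there were 10 higher and 7 lower in MM134 (63% called, all genes 57.2%, list median 0.04), 7 higher and 4 lower in MM330 (45.8% called, all genes 32.5%, list median 0.14) and 13 higher and 4 lower in HCC1428 (63% called, all genes 51.2%, list median 0.28). With siFOXA1 there were 9 higher and 10 lower in MM134 (70.4% called, all genes 56.3%, list median 0.00), 11 higher and 5 lower in MM330 (66.7% called, all genes 49%, list median 0.19) and 10 higher and 11 lower in HCC1428 (77.8% called, all genes 53.6%, list median -0.15). With siMDC1 there were 7 higher and 6 lower in MM134 (48.1% called, all genes 50.3%, list median 0.05), 4 higher and 3 lower in MM330 (29.2% called, all genes 20.8%, list median 0.04) and 3 higher and 4 lower in HCC1428 (25.9% called, all genes 29.1%, list median 0.05). The median log2 fold change over all genes lay between -0.03 and 0.04 in these 12 comparisons, here and for the lists below.

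PPARA, a receptor for fatty acids, averaged 19.3 CPM in MM134 siER_E2 and 9.19 CPM in siNT_E2, a 2.14-fold rise (edgeR adjusted p = 1.5e-11, SE 0.072 on the log2 scale). It fell with E2 in the same line by 0.94 on that scale (± 0.073, adjusted p = 3.1e-10). RXRB, a partner of other nuclear receptors like RXRA, rose with siER in HCC1428 by 0.56 (± 0.038, adjusted p = 5.1e-10) and fell there with E2 by 0.56 (± 0.039, adjusted p = 3.4e-10). THRB, thyroid hormone receptor beta, fell with siMDC1 by 1.44 in MM134 (± 0.055, edgeR adjusted p = 2e-15), 1.30 in MM330 (± 0.079, adjusted p = 9.5e-09) and 0.97 in HCC1428 (± 0.064, adjusted p = 3e-09). Its MM134 means were 17.9 ± 1.30 CPM in siMDC1_E2 and 48.5 ± 0.934 CPM in siNT_E2. PPARD, a receptor of the same family as PPARA, fell with siFOXA1 by 0.76, 0.52 and 0.72 in the 3 lines.

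**Figure D5:**
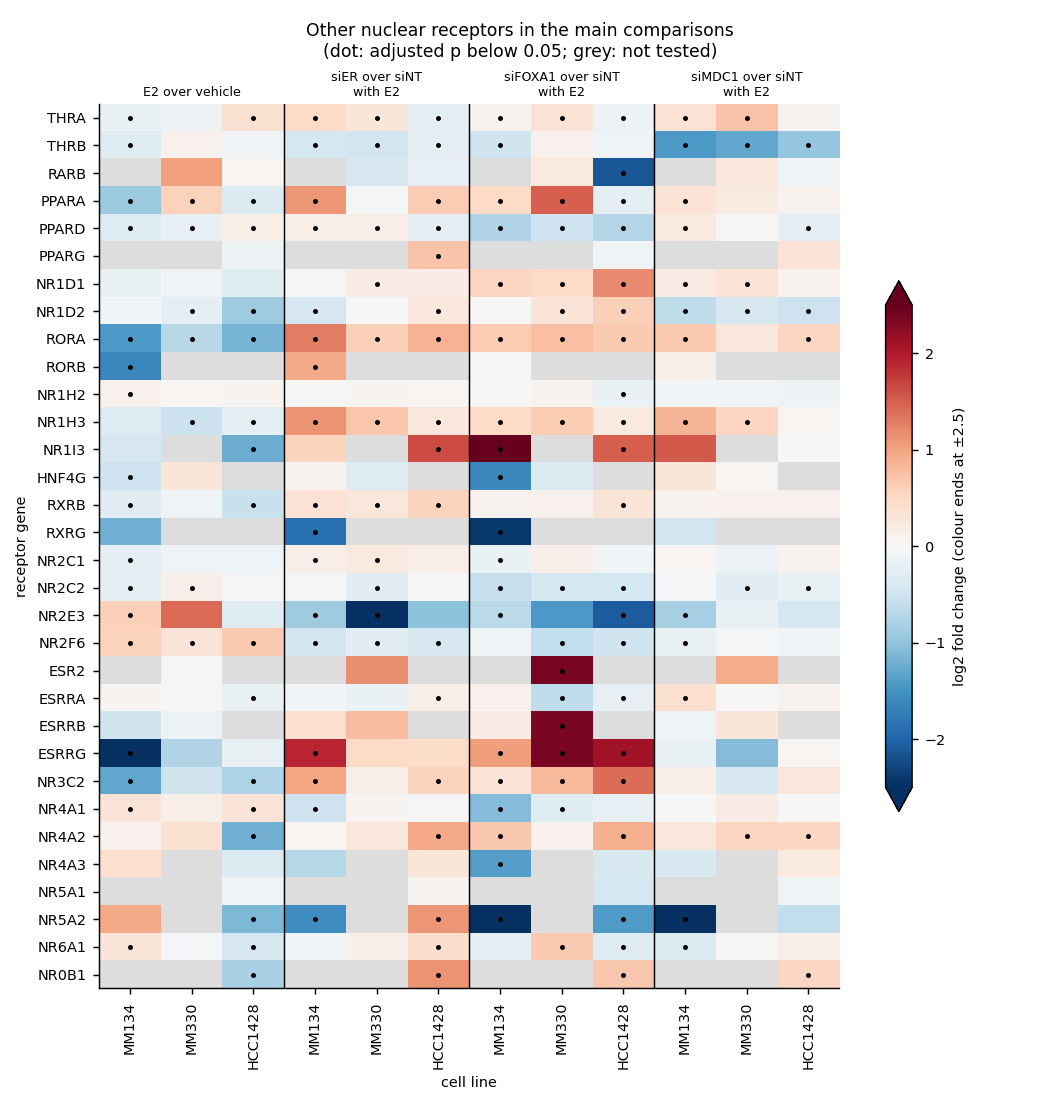
Log2 fold change (colour scale, ending at 2.5 in each direction) of the other nuclear receptor genes (rows) in the 4 comparisons of each line (columns); a dot marks an edgeR adjusted p below 0.05 and grey a gene not tested. THRB is lower in the 3 siMDC1 columns and PPARD in the 3 siFOXA1 columns.

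Partners and handlers of the members' ligands were counted in the same way. Of 20 genes that bind, make or break down retinoids, 9 were measured in MM134, 11 in MM330 and 12 in HCC1428. With E2 there were 2 higher and 4 lower in MM134 (66.7% called, all genes 54.4%, list median -0.05), 1 higher and 4 lower in MM330 (45.5% called, all genes 26.3%, list median -0.16) and 3 higher and 3 lower in HCC1428 (50% called, all genes 54.8%, list median 0.04). With siER there were 4 higher and 2 lower in MM134 (66.7% called, all genes 57.2%, list median 0.18), 1 higher and 3 lower in MM330 (36.4% called, all genes 32.5%, list median 0.00) and 2 higher and 3 lower in HCC1428 (41.7% called, all genes 51.2%, list median 0.05). With siFOXA1 there were 5 higher and 3 lower in MM134 (88.9% called, all genes 56.3%, list median 0.35), 3 higher and 3 lower in MM330 (54.5% called, all genes 49%, list median -0.13) and 2 higher and 5 lower in HCC1428 (58.3% called, all genes 53.6%, list median -0.15). With siMDC1 there were 5 higher and 2 lower in MM134 (77.8% called, all genes 50.3%, list median 0.33), 1 higher and 0 lower in MM330 (9.09% called, all genes 20.8%, list median -0.19) and 3 higher and 1 lower in HCC1428 (33.3% called, all genes 29.1%, list median 0.10). CYP26B1, an enzyme that breaks down retinoic acid, rose with E2 in all 3 lines, by 0.91, 1.13 and 0.81 on the log2 scale. CRABP2, which carries retinoic acid to its nuclear receptors, rose with siFOXA1 by 1.48 in MM134, 4.28 in MM330 and 0.96 in HCC1428. Its MM330 means were 104 ± 26.0 CPM in siFOXA1_E2 and 5.45 ± 0.46 CPM in siNT_E2 (SD, n = 3), a 19.4-fold change.

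Of 12 genes known to answer to glucocorticoids, 10 were measured in each line and 1 was not analysed here. With E2 there were 2 higher and 6 lower in MM134 (80% called, all genes 54.4%, list median -0.41), 2 higher and 4 lower in MM330 (60% called, all genes 26.3%, list median -0.20) and 3 higher and 5 lower in HCC1428 (80% called, all genes 54.8%, list median -0.15). With siER there were 5 higher and 2 lower in MM134 (70% called, all genes 57.2%, list median 0.18), 3 higher and 2 lower in MM330 (50% called, all genes 32.5%, list median 0.06) and 5 higher and 4 lower in HCC1428 (90% called, all genes 51.2%, list median 0.26). With siFOXA1 there were 2 higher and 5 lower in MM134 (70% called, all genes 56.3%, list median -0.29), 3 higher and 5 lower in MM330 (80% called, all genes 49%, list median -0.17) and 5 higher and 3 lower in HCC1428 (80% called, all genes 53.6%, list median 0.21). With siMDC1 there were 6 higher and 1 lower in MM134 (70% called, all genes 50.3%, list median 0.45), 2 higher and 3 lower in MM330 (50% called, all genes 20.8%, list median 0.13) and 4 higher and 2 lower in HCC1428 (60% called, all genes 29.1%, list median 0.09). TSC22D3, which encodes the glucocorticoid-induced leucine zipper, fell with E2 by 0.77, 0.34 and 1.01 in MM134, MM330 and HCC1428. SGK1, a kinase gene on the same list, rose with E2 by 2.06 in MM134 and 3.09 in MM330. No glucocorticoid was among the treatments.

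Of 8 genes of vitamin D handling, 6 were measured in each line. With E2 there were 1 higher and 1 lower in MM134 (33.3% called, all genes 54.4%, list median -0.01), 2 higher and 0 lower in MM330 (33.3% called, all genes 26.3%, list median 0.14) and 3 higher and 0 lower in HCC1428 (50% called, all genes 54.8%, list median 0.58). With siER there were 1 higher and 2 lower in MM134 (50% called, all genes 57.2%, list median 0.16), 0 higher and 2 lower in MM330 (33.3% called, all genes 32.5%, list median -0.02) and 0 higher and 2 lower in HCC1428 (33.3% called, all genes 51.2%, list median -0.51). With siFOXA1 there were 3 higher and 1 lower in MM134 (66.7% called, all genes 56.3%, list median 0.23), 2 higher and 1 lower in MM330 (50% called, all genes 49%, list median 0.20) and 2 higher and 2 lower in HCC1428 (66.7% called, all genes 53.6%, list median -0.09). With siMDC1 there were 2 higher and 1 lower in MM134 (50% called, all genes 50.3%, list median 0.07), 1 higher and 2 lower in MM330 (50% called, all genes 20.8%, list median -0.18) and 0 higher and 2 lower in HCC1428 (33.3% called, all genes 29.1%, list median -0.28). CYP24A1, the enzyme that breaks down active vitamin D and a classical VDR target, had counts only in HCC1428 among the groups of these lines. It had 5.74 ± 0.632 CPM in HCC1428 siNT_E2 and 0.70 ± 0.213 CPM in siNT (SD, n = 3), a rise of 2.99 on the log2 scale (± 0.206, edgeR adjusted p = 3.4e-10). LRP2, an uptake receptor for the vitamin D carrier protein, rose with E2 by 3.13 in MM330, where it fell with siER (-3.56), siFOXA1 (-3.30) and siMDC1 (-0.80).

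The 13 chaperones of steroid receptor complexes were all measured, and in MM134 all 13 rose with E2 and fell with siER. With E2 there were 13 higher and 0 lower in MM134 (100% called, all genes 54.4%, list median 0.54), 2 higher and 3 lower in MM330 (38.5% called, all genes 26.3%, list median -0.01) and 11 higher and 1 lower in HCC1428 (92.3% called, all genes 54.8%, list median 0.49). With siER there were 0 higher and 13 lower in MM134 (100% called, all genes 57.2%, list median -0.46), 4 higher and 3 lower in MM330 (53.8% called, all genes 32.5%, list median 0.02) and 1 higher and 11 lower in HCC1428 (92.3% called, all genes 51.2%, list median -0.51). With siFOXA1 there were 1 higher and 9 lower in MM134 (76.9% called, all genes 56.3%, list median -0.19), 0 higher and 9 lower in MM330 (69.2% called, all genes 49%, list median -0.26) and 1 higher and 10 lower in HCC1428 (84.6% called, all genes 53.6%, list median -0.26). With siMDC1 there were 1 higher and 7 lower in MM134 (61.5% called, all genes 50.3%, list median -0.16), 3 higher and 0 lower in MM330 (23.1% called, all genes 20.8%, list median 0.10) and 0 higher and 5 lower in HCC1428 (38.5% called, all genes 29.1%, list median -0.07). FKBP4, the co-chaperone FKBP52 of the steroid receptors, rose with E2 in every line. It had 1333 ± 6.81 CPM in MM134 siNT_E2 against 413 ± 26.9 CPM in siNT (SD, n = 3), a log2 change of 1.66 ± 0.035 (edgeR adjusted p = 6.2e-20), with 0.83 in MM330 and 1.15 in HCC1428. FKBP5, the co-chaperone FKBP51 and also a gene of the glucocorticoid list, rose with E2 by 0.68 in MM134, 0.71 in MM330 and 2.20 in HCC1428.

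The genes whose levels followed each member most closely were found over the 45 libraries after removing the mean of each line, as a description, since libraries of a group share their treatment. The measure was Pearson's r of log2(CPM + 0.5) against 9097 or 9098 other protein-coding genes with at least 5 CPM in each line. RARA had the closest partners: CISH (r = 0.961), FAM102A (0.952) and AMZ1 (0.936). PGR followed KCNK5 (0.924), TANC2 (0.900) and SIAH2 (0.900), and VDR followed TMEM127 (0.918), AP4E1 (0.871) and SBDS (0.867). NR3C1 was closest to NCOA2 (0.905), BLNK (0.900) and PIK3IP1 (0.881), RXRA to DNASE1 (0.898), STX16 (0.888) and DDIT4 (0.884), and RARG to CLDN4 (0.879), PLXNB3 (0.879) and TSPAN15 (0.871). ESR1 was closest to C5orf22 (0.877), TWF1 (0.876) and TMCC1 (0.876). For ESR1 and for RXRA, none of the 3 genes named was among the 3 closest by Spearman's rho, and for VDR and NR2F1 1 of 3 was. NR2F2 was closest to SLC22A5 (0.814), HK1 (0.787) and SHISA4 (0.749), and NR2F1 to CDK19 (0.740), ACP6 (0.724) and CHMP7 (0.697). PGR had few counts in MM134, and NR2F1 few in MM330 and HCC1428, so their r values say little of those lines. Among the members themselves, r was 0.70 between NR3C1 and RARG, 0.68 between NR3C1 and RXRA and 0.68 between PGR and RARA, and -0.62 between RARA and RXRA and -0.61 between RARA and NR3C1.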

How the data were processed

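Bulk RNA-seq was made from 45 libraries with a stranded mRNA kit, per the labels' protocols. The authors deposited raw gene counts per library, in whole numbers, for 57353 gene symbols. The submitters' processing notes name STAR 2.6.0a, limma and the build hg38 (GRCh38). The counting tool, annotation and strand setting are not given in the sources used here. Gene positions and types were taken from GENCODE 29, in which 56598 symbols were found, and 27 symbols turned into dates hold 0.19% of counts.

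Each line's 15 libraries were fitted together with edgeR 4.0.16 in R 4.3.3 (low-count filter by group, TMM scaling, quasi-likelihood test, Benjamini-Hochberg adjustment over all tested genes, called below 0.05): 17744 genes in MM134, 17834 in MM330 and 18286 in HCC1428. Differences between lines and the siNT comparisons used all 45 libraries (21447 genes). There, a member that failed the filter in a line's own fit was left out, but other genes were not. In all, 45 comparisons were made. Levels are counts scaled by TMM library sizes (CPM) over the 45 libraries. The fit was tested on simulated data with a fixed spread and few changed genes, all well counted. That test does not cover members with few counts or comparisons in which many genes were called.

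The members and lists were chosen with earlier results of these data known. Genes of the receptor list that are not reported here were left out of its counts and ranks. Named list genes were up to 3 called genes per list and comparison by smallest p with a group mean of at least 5 CPM; values of these genes in other comparisons are given beside them. Alternatives were RLE scaling, no filter, a replicate block, each library left out, DESeq2 1.42.0, limma-voom (limma 3.58.1), only the compared libraries, and leaving out 11 libraries with more pseudogene counts. Floors, the differences given as at least so many fold, cover counting error only. Values after ± are edgeR standard errors for changes and SDs over libraries for levels, and both reflect the spread between libraries.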

Additional observations from a re-analysis of the deposited data

Results flagged for a closer look

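In 73 of 92 tests the change of a member differed between lines, each by a test of the difference itself (edgeR, all 45 libraries, adjusted p below 0.05). Of all genes, 13.8% to 30.5% differed in the 12 comparisons. All values are differences of log2 fold changes, and the 12 tests of a member share libraries. The fall of ESR1 with siER itself differed between every pair of lines and was smallest in HCC1428 (values below). The siER differences of the other members therefore compare unequal knockdowns, and the part of this in them was not tested.

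For ESR1 the differences for MM134 minus HCC1428 were 1.19 with E2, -2.17 with siER, -2.17 with siFOXA1 and -2.03 with siMDC1. MM330 minus HCC1428 gave 0.35, -2.71, -0.33 and -0.84 in the same order, and for MM134 minus MM330 0.84, 0.53, -1.85 and -1.19. The change of ESR1 with E2 was thus ordered MM134, MM330, HCC1428.

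For PGR, tested for MM330 minus HCC1428, the differences were 3.15 with E2, -2.99 with siER and -0.85 with siMDC1.

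For NR3C1 the differences for MM134 minus HCC1428 were 0.28 with siER, 0.44 with siFOXA1 and 0.29 with siMDC1. The siER call was lost without MM134 siER_E2 replicate 2 (0.20, edgeR adjusted p = 0.12), MM134 siNT_E2 replicate 2 (0.25, adjusted p = 0.055) or HCC1428 siNT_E2 replicate 4 (0.23, adjusted p = 0.068), and the siMDC1 call without MM134 siMDC1_E2 replicate 2 (0.24, adjusted p = 0.078), MM134 siNT_E2 replicate 2 (0.26, adjusted p = 0.064) or HCC1428 siNT_E2 replicate 4 (0.24, adjusted p = 0.078). The values for MM330 minus HCC1428 were 0.29 with E2, a call lost without HCC1428 siNT replicate 3 (0.22, adjusted p = 0.062), and 0.49 with siFOXA1. For MM134 minus MM330 they were -0.32 with E2, 0.45 with siER and 0.33 with siMDC1.

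For VDR the differences for MM134 minus HCC1428 were -0.59 with siER and 0.55 with siFOXA1. MM330 minus HCC1428 gave 0.33 with E2 (not called without the libraries with more pseudogene counts, 0.31, edgeR adjusted p = 0.084), -0.56 with siER, -0.47 with siFOXA1 and -0.61 with siMDC1, and for MM134 minus MM330 1.02 with siFOXA1 and 0.66 with siMDC1.

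For RARA the differences for MM134 minus HCC1428 were 1.30 with E2, -0.83 with siER, -0.83 with siFOXA1 and -0.56 with siMDC1. The values for MM330 minus HCC1428 were 0.86, -0.56, -0.51 and 0.33 in the same order, and for MM134 minus MM330 0.45, -0.27, -0.32 and -0.89.

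For RARG the differences for MM134 minus HCC1428 were 0.34 with E2, -0.37 with siER, 0.36 with siFOXA1 and 0.40 with siMDC1. MM330 minus HCC1428 gave 0.31 with E2, -0.56 with siER and 0.80 with siFOXA1, and for MM134 minus MM330 -0.44 with siFOXA1 and 0.45 with siMDC1.

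For RXRA the differences for MM134 minus HCC1428 were -0.22 with E2, 0.23 with siER and 0.20 with siMDC1. The E2 call was lost without MM134 siNT replicate 2 (-0.17, edgeR adjusted p = 0.059), and the siMDC1 call without MM134 siNT_E2 replicate 2 (0.17, adjusted p = 0.057) or HCC1428 siMDC1_E2 replicate 2 (0.17, adjusted p = 0.066). The values for MM330 minus HCC1428 were -0.26 with E2, 0.29 with siER, 0.67 with siFOXA1 and 0.38 with siMDC1. For MM134 minus MM330 they were -0.53 with siFOXA1 and -0.18 with siMDC1. The last call was lost without MM134 siMDC1_E2 replicate 3 (-0.17, adjusted p = 0.055), MM134 siNT_E2 replicate 1 (-0.17, adjusted p = 0.063) or 3 (-0.17, adjusted p = 0.056), MM330 siMDC1_E2 replicate 1 (-0.18, adjusted p = 0.05) or 2 (-0.17, adjusted p = 0.071), and MM330 siNT_E2 replicate 1 (-0.18, adjusted p = 0.061) or 3 (-0.16, adjusted p = 0.081). Without the libraries with more pseudogene counts, siMDC1 for MM134 minus MM330 (-0.20, adjusted p = 0.057) and siER for MM134 minus HCC1428 (0.21, adjusted p = 0.094) were not called.

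For NR2F1, tested for MM134 minus HCC1428, the differences were -1.67 with E2 and 1.80 with siMDC1, with few counts in HCC1428. Without the libraries with more pseudogene counts the E2 difference was -1.03 (edgeR adjusted p = 0.15). For NR2F2 the differences for MM134 minus HCC1428 were 0.40 with E2, 0.78 with siFOXA1 and -0.37 with siMDC1. MM330 minus HCC1428 gave 0.76 with E2, -0.82 with siER and -0.69 with siMDC1, and for MM134 minus MM330 -0.36 with E2, 0.62 with siER, 0.56 with siFOXA1 and 0.32 with siMDC1.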

How the results depend on the processing

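Of 699 recomputed values of the 12 main comparisons under other settings, 684 kept direction and call, as did 577 of 600 with 1 library left out. For differences between lines these were 502 of 511 and 859 of 876. Of 135 group levels, 61 moved by more than the spread between replicates with TMM scaling within the line and 15 with RLE scaling. The cause of the changes below was not tested. Values that turned sign were not called before or after: RARA in HCC1428 with siFOXA1 (-0.03) was 0.00 with RLE scaling and with DESeq2, 0.01 with only the compared libraries and 0.04 without the libraries with more pseudogene counts, and -0.06 to 0.01 with 1 library left out. ESR1 in HCC1428, siFOXA1_E2 against siMDC1_E2 (-0.04), was 0.00 with RLE scaling and DESeq2. Without the libraries with more pseudogene counts, RARG in MM330 with siER was -0.01, NR2F1 in HCC1428 with E2 -0.18 and RARA in HCC1428 with siMDC1 0.00. With 1 library left out, NR2F1 in HCC1428 with siFOXA1 ranged from -0.38 to 0.20, NR2F2 in MM134 with siER from -0.01 to 0.06 and RARG in MM330 with siER from -0.06 to 0.05.

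Without the libraries with more pseudogene counts, 3092 genes were called with E2 in MM330 (4690 with all libraries), 2208 with siMDC1 in MM330 (3710) and 3595 for the siER difference of MM330 minus HCC1428 (5428), from fewer libraries. Members called in MM330 siER_E2 against siNT were then 3 (5 with all libraries), and 2 to 4 with 1 library left out. With no filter, 3 members were called in siNT of MM134 against MM330 (5 with the filter). Without those libraries the differences of NR2F1 (E2, MM134 minus HCC1428; -1.03, edgeR adjusted p = 0.15), RXRA (siER, MM134 minus HCC1428; 0.21, adjusted p = 0.094), RXRA (siMDC1, MM134 minus MM330; -0.20, adjusted p = 0.057) and VDR (E2, MM330 minus HCC1428; 0.31, adjusted p = 0.084) were no longer called.

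Replicate numbers did not pair the libraries of MM134 and MM330: in no comparison with 3 pairs did every pair correlate above 0.1. In HCC1428 numbers were shared by 2 pairs, whose correlations were 0.31 and 0.39 for E2 against vehicle. They did not both pass 0.1 in its knockdown comparisons (-0.16 and 0.51 for siER). Whether the numbers pair the HCC1428 libraries cannot be settled from 2 pairs. With the replicate number as a block, calls lost in the main comparisons were VDR in MM330 with siFOXA1 (-0.25, edgeR adjusted p = 0.05), NR2F2 in HCC1428 with E2 (-0.16, adjusted p = 0.057) and NR2F2 in HCC1428 with siER (0.10, adjusted p = 0.27). Depth limits PGR in MM134 and NR2F1 in MM330 and HCC1428.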
